A study of Rattus norvegicus with 20 samples.

Results

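The genes described here serve the endoplasmic reticulum (ER) stress response and the response to amino acid shortage: the ER chaperones Hspa5, Calr and Pdia3, the stress regulators Ppp1r15a, Ddit3 and Atf4, and the amino acid enzymes Psat1 and Asns. They were taken by symbol. Of the 8 genes, 7 had at least 1 probe set on the rat array, and no probe set was annotated to Atf4, which is not analysed here. Together they gave 16 of the 8740 probe sets tested, namely 4 for Psat1, 3 each for Hspa5 and Calr, 2 each for Ppp1r15a and Pdia3, and 1 each for Ddit3 and Asns. Probe sets of a gene are numbered by brightness, and several of them were designed on a shared source sequence, so they are not independent measurements of the gene.

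Total RNA of cultured rat progenitors and their derivatives was measured on 20 arrays in 4 groups. RA/Fsk cultures were low-density CCg progenitors given RA/Fsk (commonly retinoic acid and forskolin) with the aim of deriving neurons (4 arrays, 4 cultures). FBS cultures were the same progenitors given FBS (commonly fetal bovine serum) with the aim of deriving astrocytes (6 arrays, 4 cultures). The references were high-density progenitors, HD (6 arrays, 3 cultures), and untreated low-density CCg progenitors, LD (4 arrays, 3 cultures). The labels do not expand CCg and use it for every group but HD, so density and CCg cannot be told apart between HD and LD. They give no strain, age, dose or time. Arrays that share a group and a number were averaged into 1 culture. Whether a number stands for a culture of its own is not stated in the labels, so the p-values reflect sample-to-sample spread that may be technical.

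Arrays of 1 culture correlated at 0.951 to 0.975, arrays of other cultures of the same group at 0.940 to 0.979, and arrays of different groups at 0.877 to 0.960. The names of the derived cells were checked against marker lists. The summed intensity of 6 of 7 astrocyte markers was 7981 to 9339 in RA/Fsk cultures and 5981 to 8001 in FBS cultures, against 3798 to 4990 in HD and 1998 to 2610 in LD cultures. The RA/Fsk sum was carried by Aldoc, S100b and Glul, which rose, while Slc1a3, Slc1a2 and Aqp4 did not pass against LD. Slc1a3, a glutamate transporter of astrocytes, read 73.0 to 162 in RA/Fsk, 342 to 369 in FBS, 111 to 281 in HD and 62.5 to 109 in LD cultures. The summed intensity of 7 of 9 neuron markers was 1269 to 1549 in RA/Fsk cultures and 1442 to 1520 in LD cultures. None of these 7 rose in RA/Fsk cultures (1 of 7 was under an unadjusted p of 0.05), and that one, Gap43, a growth cone protein, fell there by 0.88 on the log2 scale (limma, adjusted p = 0.0121). The groups are therefore called by their treatment. Fewer cells of a type and less RNA per cell cannot be told apart in such bulk samples. Gfap, Tubb3 and Sox2 had no probe set annotated to them alone.

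RA/Fsk culture 3 and HD culture 4 stood apart from the others of their groups in several of the genes below. For many of the member genes below, values without one of them are given, though not for every call that changed. No such values are given for the genes of the lists. RA/Fsk culture 3 had 147 of 8740 probe sets at least 1 log2 above every other culture of its group and 265 as far below, against 41 to 223 and 75 to 109 in the other RA/Fsk cultures. HD culture 4 had 62 above and 139 below, against 68 and 110 above and 48 and 98 below in the other HD cultures.

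As background, proteins of the secretory pathway fold in the ER with the help of chaperones. When unfolded proteins build up, sensors in the ER membrane raise chaperone genes through the transcription factors ATF6 and XBP1, and the kinase PERK slows translation by phosphorylating eIF2. Phosphorylated eIF2 favours translation of Atf4, a transcription factor that also responds to amino acid shortage through the kinase GCN2 and that acts on Asns, Psat1 and Ddit3. Ppp1r15a takes the phosphate off eIF2 again. Astrocytes secrete many proteins and supply serine and glutamine to neurons.

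The promoters of 3 of the genes are shown because they hold the known elements of these branches. RefSeq (GRCr8) promoters were searched for the ER stress response element, the joint site of NF-Y and ATF6, spelled CCAAT and CCACG with 9 bases between them, and for the cyclic AMP response element TGACGTCA, a site of CREB and ATF proteins. Both strands were searched from 250 bases before to 50 after the start, and 7 of the 8 genes had an entry. The ER stress response element was found in Hspa5 and Calr and in 22 of 33469 promoters (0.0657%). Its parts are common, with CCAAT in 37.5% of promoters and CCACG in 31.6%. The cyclic AMP response element was found in Ppp1r15a and in 1.83% of promoters. The 250 bases before the start follow, from 5′ to 3′ in the direction of the gene, with the matched element in capitals. In Calr the ER stress response element is on the other strand.
Hspa5, chr3:38452766-38453015, plus strand: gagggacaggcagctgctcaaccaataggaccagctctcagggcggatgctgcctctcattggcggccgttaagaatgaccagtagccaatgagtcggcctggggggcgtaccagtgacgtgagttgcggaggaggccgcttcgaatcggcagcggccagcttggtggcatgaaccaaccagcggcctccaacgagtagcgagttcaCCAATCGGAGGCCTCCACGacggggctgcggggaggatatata
Calr, chr19:40213117-40213366, plus strand: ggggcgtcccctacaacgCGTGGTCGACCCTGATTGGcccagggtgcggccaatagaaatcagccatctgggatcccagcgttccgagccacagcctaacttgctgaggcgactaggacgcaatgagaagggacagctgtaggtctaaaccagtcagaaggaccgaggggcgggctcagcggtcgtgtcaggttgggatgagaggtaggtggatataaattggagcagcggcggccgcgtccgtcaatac
Ppp1r15a, chr1:105139597-105139846, minus strand: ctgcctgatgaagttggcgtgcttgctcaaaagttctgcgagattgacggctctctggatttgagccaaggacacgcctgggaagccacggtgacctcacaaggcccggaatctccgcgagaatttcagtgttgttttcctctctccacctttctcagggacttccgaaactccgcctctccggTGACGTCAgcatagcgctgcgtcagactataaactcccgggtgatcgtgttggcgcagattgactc

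The Hspa5 element lies 43 to 25 bases before the start and the Calr element 232 to 214 bases before it. The Ppp1r15a element lies 66 to 59 bases before the start. The composite C/EBP-ATF site through which Atf4 acts, searched as TGATGNAAN on both strands, was in 0 of the 7 windows and in 3.97% of all promoters. The 7 windows include that of Atf4 and lack one for Pdia3. Those of Psat1 and Asns lie within the annotated gene spans, so the bases before the outermost start of these genes were not searched. A match describes letters in the window and is no evidence of binding, and a missing match says nothing about the factor.

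More probe sets of the 7 genes passed with FBS than with RA/Fsk. Against LD, 10 of the 16 probe sets rose, 3 fell and 3 did not pass, beside 25.5% of all probe sets that passed (13.2% rose and 12.3% fell). Calls are at a p under 0.05 from limma after Benjamini-Hochberg adjustment over all 8740. Differences are on the scale of log2(intensity + 4.99), which understates the change of dim probe sets. The median difference of the 16 probe sets was 0.87 log2, and that of all probe sets was -0.09. In 14 of the 16 the FBS and LD cultures did not overlap, against 35.4% of all probe sets. The genes with a rise were Hspa5, Calr, Pdia3, Ppp1r15a and Ddit3, and the gene with a fall was Psat1.

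With RA/Fsk, fewer of them passed. Against LD, 4 of the 16 probe sets rose and 3 fell, beside 8.25% of all probe sets that passed (4.71% rose and 3.54% fell). The rises were in Ppp1r15a and Calr and the falls in Psat1. The cultures did not overlap in 8 of the 16, against 15.5% of all probe sets. The FBS and RA/Fsk comparisons share the LD cultures. Tested directly, RA/Fsk and FBS cultures differed in 2 of the 16, both Psat1 probe sets that were higher in RA/Fsk cultures, beside 18.4% of all probe sets (8.27% higher and 10.1% lower). The cultures of these groups did not overlap in 3 of the 16, against 21.5% of all.

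**Figure D1:**
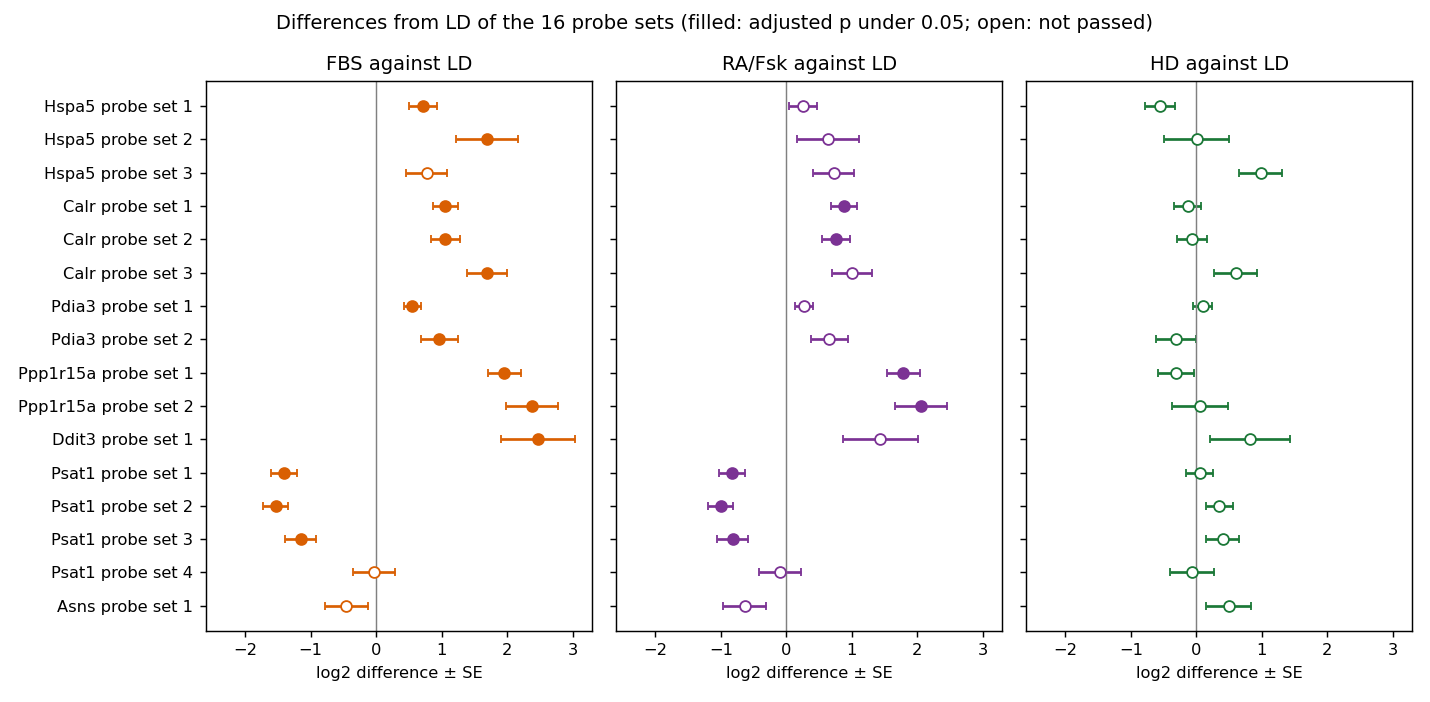
Log2 differences from LD with their SE for the 16 probe sets, in panels for FBS, RA/Fsk and HD cultures; filled points passed at an adjusted p under 0.05 and open points did not. In the FBS panel 10 points are filled to the right of 0 and 3 to the left, in the RA/Fsk panel 4 and 3, and in the HD panel 0.

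Hspa5 encodes the main Hsp70-type chaperone of the ER lumen, which also holds the stress sensors inactive. On its brightest probe set the RA/Fsk cultures read 472.4, 858.4, 876.5 and 756.3 units of linear intensity. The FBS cultures read 1037, 1048, 959.3 and 930, the HD cultures 602.6, 340.7 and 331.6, and the LD cultures 593.9, 634.2 and 581.5. The FBS cultures lay above those of every other group, and RA/Fsk culture 1 lay below all 3 LD cultures.

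The group means of Hspa5 were 741 ± 187 in RA/Fsk, 994 ± 58.0 in FBS, 425 ± 154 in HD and 603 ± 27.6 in LD cultures (SD, n = 4, 4, 3 and 3 cultures), so FBS was highest and HD lowest. Hspa5 rose with FBS over LD by 0.71 ± 0.21 log2 (SE; limma, adjusted p = 0.0193) and over HD by 1.27 ± 0.21 (adjusted p = 0.000273). The neighbours RA/Fsk and LD did not differ beyond their spread, at 0.25 log2 with a 95% interval of -0.20 to 0.71 (limma, adjusted p = 0.570). Nor did HD and LD (-0.56 ± 0.23, adjusted p = 0.289), or RA/Fsk and FBS (-0.46 ± 0.20, adjusted p = 0.133). RA/Fsk cultures were higher than HD by 0.81 ± 0.21 (adjusted p = 0.0224), and this was 0.72 (adjusted p = 0.0521) without RA/Fsk culture 3 and 0.66 (adjusted p = 0.125) without HD culture 4.

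The second Hspa5 probe set was dimmer and spread more widely. It averaged 98.1 ± 54.3 in RA/Fsk, 184 ± 35.4 in FBS, 63.0 ± 49.8 in HD and 54.7 ± 18.9 in LD cultures, and rose with FBS over LD by 1.69 ± 0.47 log2 (limma, adjusted p = 0.0120). The third lay between 0 and 10.5 in all cultures and passed in no comparison. The FBS rise of Hspa5 was among the less stable calls. Leaving out LD culture 4 gave an adjusted p of 0.0595 for the first probe set and 0.0633 for the second. Centring each array on its median gave 0.62 log2 for the first (adjusted p = 0.0761).

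Calr encodes calreticulin, a chaperone that binds sugar chains of new glycoproteins and stores calcium in the ER. Its brightest probe set read 1674, 3168, 2925 and 2743 in RA/Fsk cultures, 2692, 3099, 2679 and 3111 in FBS cultures, 1328, 1379 and 1100 in HD cultures, and 1266, 1180 and 1778 in LD cultures. All 4 FBS cultures and 3 of 4 RA/Fsk cultures lay above every HD and LD culture. RA/Fsk culture 1 lay below the highest LD culture.

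Calr rose with FBS over LD on all 3 probe sets, by 1.06 ± 0.19 log2 or 2.08-fold (limma, adjusted p = 0.00054), 1.06 ± 0.22 (adjusted p = 0.00146) and 1.69 ± 0.31 (adjusted p = 0.000479). With RA/Fsk it rose over LD on the first probe set by 0.88 ± 0.19 (adjusted p = 0.00847) and on the second by 0.76 ± 0.22 (adjusted p = 0.0414). The third was higher by 1.003 ± 0.306 (adjusted p = 0.0546). With the culture number as a block over all 14 cultures, the third gave 0.87 and passed (adjusted p = 0.0415). Only RA/Fsk and LD met the rule for pairing, which was read from these same data. The third also passed without HD culture 4 (adjusted p = 0.0317). The first probe set averaged 2628 ± 659 in RA/Fsk, 2895 ± 242 in FBS, 1269 ± 148 in HD and 1408 ± 323 in LD cultures (SD), an order of FBS, RA/Fsk, LD and HD from high to low. Of these neighbours, RA/Fsk and FBS did not differ beyond their spread (-0.18 log2, 95% interval -0.56 to 0.20), and nor did HD and LD (-0.13 log2, -0.57 to 0.31).

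The first probe set lost its RA/Fsk call without LD culture 3 (0.77 log2, limma, adjusted p = 0.0544). The second lost it in 13 of 26 alternatives, with adjusted p-values of up to 0.195, the value without LD culture 3 (0.58 log2). These included leaving out RA/Fsk culture 2, 3 or 4 (adjusted p = 0.111, 0.0783 and 0.102), quantile normalization (0.0683) and median centring (0.0798). The third Calr probe set differed widely between the arrays of FBS culture 3, which read 1164 and 276.4. The first Calr probe set read 3249 and 2209 on the same arrays.

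Pdia3 encodes a disulfide isomerase that works on glycoproteins together with calreticulin. Its brighter probe set read 800.1, 1100, 1091 and 1164 in RA/Fsk cultures, 1193, 1388, 1193 and 1229 in FBS cultures, 896.2, 900.9 and 931.3 in HD cultures, and 883.6, 773.2 and 904.7 in LD cultures. The FBS cultures lay above all others. Pdia3 rose with FBS over LD by 0.55 ± 0.13 log2 or 1.46-fold (limma, adjusted p = 0.00452), and over HD by 0.46 ± 0.13 (adjusted p = 0.0184). The rise over HD lost its call in 5 of 26 alternatives and was 0.26 with median centring (adjusted p = 0.348). The dimmer probe set averaged 60.3 ± 6.66 in RA/Fsk, 75.7 ± 9.79 in FBS, 29.8 ± 12.0 in HD and 37.1 ± 10.3 in LD cultures. It rose with FBS over LD by 0.96 ± 0.28 (adjusted p = 0.0170). The brighter one differed between HD and LD by 0.09 ± 0.14 (adjusted p = 0.810).

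RA/Fsk and LD cultures did not differ in Pdia3 past the threshold, at 0.27 ± 0.13 log2 (limma, adjusted p = 0.257) and 0.66 ± 0.28 (adjusted p = 0.183). Against HD the dimmer probe set was higher in RA/Fsk cultures by 0.97 ± 0.28 (adjusted p = 0.0376), by 0.65 without HD culture 4 (adjusted p = 0.206) and by 0.92 without RA/Fsk culture 3 (adjusted p = 0.0695). The FBS rise over LD was lost on the brighter probe set when arrays were centred on their median (0.46, adjusted p = 0.0666), and on the dimmer one without LD culture 4 (0.77, adjusted p = 0.0897).

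**Figure D2:**
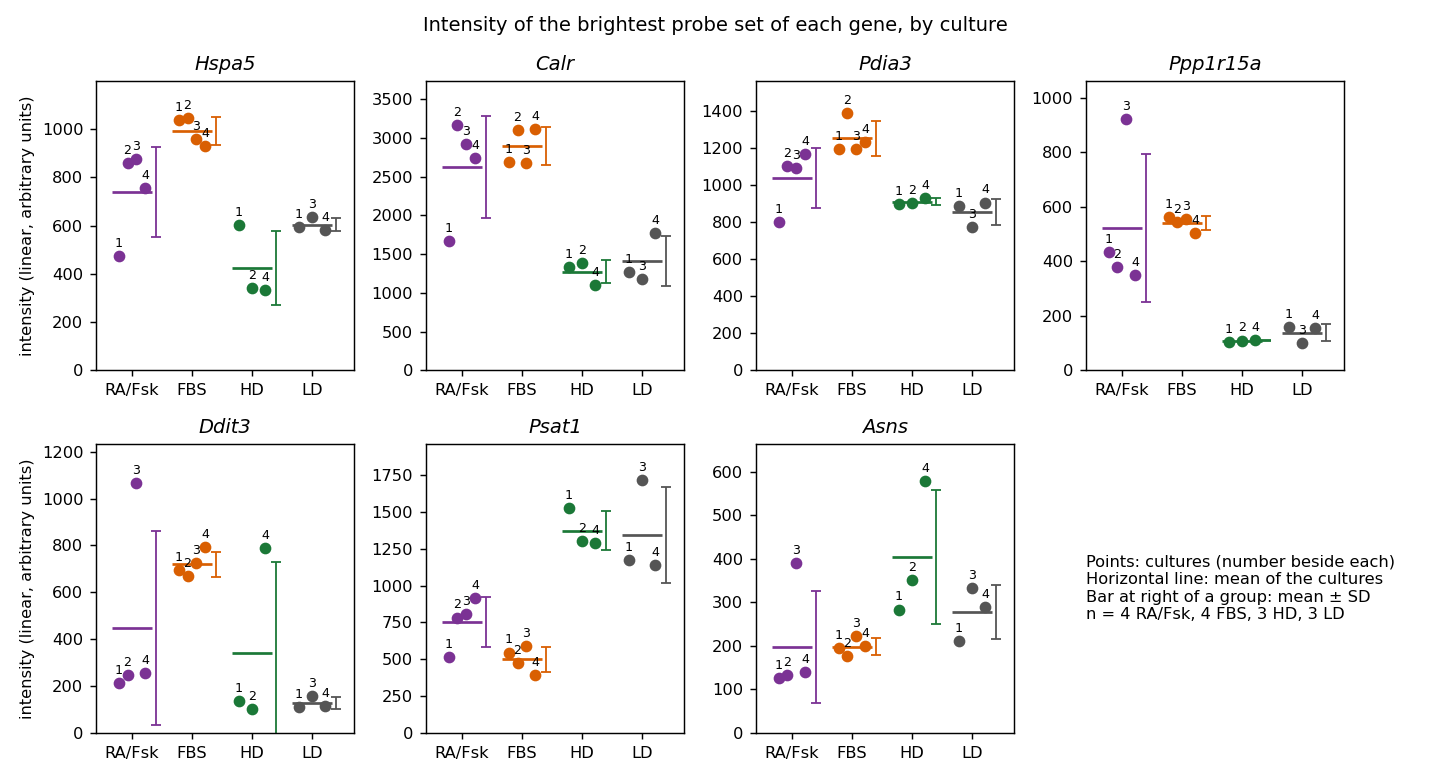
Linear intensity in arbitrary units of the brightest probe set of each gene, 1 point per culture with its number, a line at the group mean and a bar of ± 1 SD (n = 4 RA/Fsk, 4 FBS, 3 HD, 3 LD; the bar of Ddit3 in HD is cut off at 0). FBS cultures lie above HD and LD cultures in Hspa5, Calr, Pdia3 and Ppp1r15a and below them in Psat1, and RA/Fsk culture 3 stands above its group in Ppp1r15a, Ddit3 and Asns.

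Ppp1r15a encodes the regulatory subunit that brings protein phosphatase 1 to phosphorylated eIF2 and so lets translation resume. It showed the clearest rise with both treatments. The RA/Fsk cultures read 434.6, 377.5, 924.1 and 350.1 on its brighter probe set, the FBS cultures 562.0, 543.8, 554.9 and 503.9, the HD cultures 105.1, 109.0 and 110.1, and the LD cultures 157.7, 101.1 and 155.5. Every treated culture lay above every HD and LD culture.

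Ppp1r15a rose over LD by 1.96 ± 0.26 log2 or 3.89-fold with FBS (limma, adjusted p = 2.06e-05) and by 1.79 ± 0.26 or 3.46-fold with RA/Fsk (adjusted p = 0.000272). The dimmer probe set gave 2.38 ± 0.40 (adjusted p = 0.000223) and 2.05 ± 0.40 (adjusted p = 0.00369). These 4 rises passed in all 26 alternatives of the processing. Without RA/Fsk culture 3 the RA/Fsk rise was 1.48 log2 (adjusted p = 3.16e-05).

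RA/Fsk against FBS did not pass for Ppp1r15a with all cultures in, at -0.17 ± 0.24 log2 (95% interval -0.67 to 0.33, limma, adjusted p = 0.713). Without RA/Fsk culture 3 the RA/Fsk cultures were lower, at -0.48 (adjusted p = 0.0417). HD and LD were at -0.31 ± 0.27 (adjusted p = 0.663).

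Ddit3 encodes a C/EBP-family transcription factor that is made under ER stress or amino acid shortage and promotes cell death when stress persists. Its probe set read 212.2, 247.7, 1066 and 257.5 in RA/Fsk cultures, 694.8, 668.9, 725.5 and 792.9 in FBS cultures, 135.3, 103.0 and 790.9 in HD cultures, and 108.9, 157.6 and 113.8 in LD cultures. The FBS cultures kept within a narrow range above every LD culture. In each of the RA/Fsk and HD groups 1 culture, RA/Fsk 3 and HD 4, reached the FBS level or passed it while the rest stayed far below it.

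Ddit3 rose with FBS over LD by 2.48 ± 0.57 log2 or 5.57-fold (limma, adjusted p = 0.00327), a call that held in all 26 alternatives. Over HD the FBS rise was 1.66 ± 0.57 (adjusted p = 0.0475) with all cultures, and it did not pass in 17 of 26 alternatives, where the adjusted p reached 0.273 (1.12 log2, without HD culture 2). Without HD culture 4 it was 2.56 (adjusted p = 0.000755). RA/Fsk cultures all lay above LD, but the difference of 1.44 ± 0.57 did not pass (adjusted p = 0.145). It was 0.90 (adjusted p = 0.317) without RA/Fsk culture 3. Without HD culture 4, which enters the shared estimate of the spread, the same 1.44 passed (adjusted p = 0.0363).

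Between the treatments, Ddit3 was at -1.04 ± 0.52 log2 in RA/Fsk against FBS cultures (limma, adjusted p = 0.213). Without RA/Fsk culture 3 the difference was -1.57 and passed (adjusted p = 0.0234). HD against LD changed sign with 1 culture and passed in neither case. It was 0.82 ± 0.61 (adjusted p = 0.593) over all cultures and -0.08 (adjusted p = 0.978) without HD culture 4.

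Psat1 encodes the aminotransferase of the serine synthesis pathway and was the gene of the set that fell with both treatments. Its brightest probe set read 517.5, 783.9, 805.7 and 914.0 in RA/Fsk cultures, 546.0, 473.3, 587.4 and 391.6 in FBS cultures, 1526, 1304 and 1289 in HD cultures, and 1175, 1719 and 1142 in LD cultures. All 8 treated cultures lay below all 6 progenitor cultures.

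Over LD, Psat1 fell with FBS by 1.41 ± 0.20 log2 on the first probe set (limma, adjusted p = 3.69e-05), by 1.54 ± 0.19 on the second (adjusted p = 1.22e-05) and by 1.15 ± 0.24 on the third (adjusted p = 0.00144). With RA/Fsk it fell by 0.83 ± 0.20 (adjusted p = 0.0127), 0.998 ± 0.191 (adjusted p = 0.00335) and 0.82 ± 0.24 (adjusted p = 0.0442). The third of these lost its call in 16 of 26 alternatives. Among them were the culture number as a block (-0.73, adjusted p = 0.0633), median centring (adjusted p = 0.0993), and leaving out HD culture 4 (adjusted p = 0.0555) or RA/Fsk culture 2 (-0.56, adjusted p = 0.0870). The first fell by 0.64 without LD culture 3 and did not pass (adjusted p = 0.0881). HD and LD were 0.05 ± 0.21 log2 apart on the first probe set (adjusted p = 0.942). The fourth probe set read 3.90 to 16.3 in all cultures and passed in no comparison.

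The RA/Fsk level of Psat1 lay between those of FBS and LD. Its first probe set averaged 755 ± 168 in RA/Fsk cultures and 499.6 ± 86.0 in FBS cultures, and was higher in RA/Fsk by 0.58 ± 0.18 log2 (limma, adjusted p = 0.0348). The second was higher by 0.54 ± 0.18 (adjusted p = 0.0435). The cultures overlapped on both. The first lost its call in 9 and the second in 14 of 26 alternatives. Both were lost without RA/Fsk culture 2, 3 or 4 or FBS culture 4, when arrays were centred on their median, when the intensity trend was left out, or when the GAPDH 5′ to 3′ ratio was a covariate (0.32 and 0.33 log2, adjusted p = 0.356 and 0.345). Against HD the falls were larger on the second probe set, at -1.35 ± 0.19 with RA/Fsk (adjusted p = 0.000262) and -1.89 ± 0.19 with FBS (adjusted p = 1.88e-06).

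Asns encodes asparagine synthetase, which makes asparagine from aspartate and glutamine and is a standard reporter of amino acid shortage. Its probe set read 125.5, 133.5, 390.3 and 139.4 in RA/Fsk cultures, 195.4, 176.0, 223.0 and 199.8 in FBS cultures, 283.6, 350.8 and 578.6 in HD cultures, and 211.0, 333.1 and 290.0 in LD cultures. The groups ran in the order HD, LD and the treated groups, and RA/Fsk culture 3 and HD culture 4 were again the highest of their groups.

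Asns did not pass against LD, at -0.46 ± 0.33 log2 with FBS (limma, adjusted p = 0.357) and -0.63 ± 0.33 with RA/Fsk (adjusted p = 0.286). Without RA/Fsk culture 3 the RA/Fsk difference was -1.02 and passed (adjusted p = 0.0100). Against HD it fell by 0.95 ± 0.33 with FBS (adjusted p = 0.0489) and by 1.13 ± 0.33 with RA/Fsk (adjusted p = 0.0377). Without HD culture 4 these were -0.66 (adjusted p = 0.263) and -0.84 (adjusted p = 0.204). The FBS difference from HD was past the threshold in 11 of 26 alternatives. HD and LD were 0.49 ± 0.35 apart (adjusted p = 0.572).

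The HD comparison with LD called none of the 16 probe sets, beside 0.858% of all probe sets. At an unadjusted p under 0.05 there were 2, the first and the third Hspa5 probe sets, in opposite directions. The HD and LD cultures did not overlap in 2 of the 16, against 19.7% of all. Set against HD in place of LD, FBS cultures showed 10 rises and 4 falls, beside 21.0% of all probe sets (11.3% rose and 9.70% fell), with no overlap in 13 of the 16 against 32.4% of all. RA/Fsk cultures showed 6 rises and 4 falls, beside 10.2% (4.85% rose and 5.32% fell), with no overlap in 8 of the 16 against 18.3%. The HD comparisons added Asns to the genes called as falling with both treatments. They added Hspa5, on its first probe set alone, and Pdia3, on its dimmer probe set alone, to the RA/Fsk rises. Without HD culture 4 none of these added calls passed.

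RA/Fsk culture 3 and HD culture 4 shared high Ddit3 and Asns and differed in Ppp1r15a. RA/Fsk culture 3 was above the mean of its group's other cultures by 2.14 log2 in Ddit3, 1.52 in Asns and 1.25 in the brighter Ppp1r15a probe set. HD culture 4 was above by 2.69 in Ddit3 and 0.87 in Asns, and by 0.04 in Ppp1r15a. It was the lowest HD culture in the first and second Hspa5 probe sets and in all 3 of Calr, while RA/Fsk culture 3 was not low in Hspa5.

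Other stress genes stood out in the same cultures. Among the 3648 brighter probe sets with 1 symbol, the 10 genes with the largest gap to the next RA/Fsk culture were Nqo1, Hmox1, Trib3, Cebpb, Aldh3a1, Ddit3, Mvd, Insig1, Ppp1r15a and Gadd45a. Trib3, a pseudokinase gene that Ddit3 and Atf4 act on, read 756.9 in RA/Fsk culture 3 and 51.7 to 96.6 in the other RA/Fsk cultures. For HD culture 4 the 10 were Ddit3, Trib3, Nupr1, Igfbp2, Dbp, Cx3cl1, Rnf112, Xylt2, Eif4ebp1 and Vegfa, and Trib3 read 515 there and 79.4 and 86.9 in the other HD cultures. Hmox1, haem oxygenase and a target of the oxidative stress factor Nrf2, read 4069 in RA/Fsk culture 3 and 446.4 to 473.1 in the other RA/Fsk cultures on its brightest probe set. In HD culture 4 it read 168, the lowest of its group. In FBS cultures Hmox1 read 1471 to 3153, and it rose there over LD by 1.79 ± 0.59 log2 (limma, adjusted p = 0.0342). Trib3 read 89.7 to 151 in FBS cultures and 66.7 to 89.8 in LD cultures. The lists of 10 genes were picked by size of gap after the values were seen and carry no test.

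**Figure D3:**
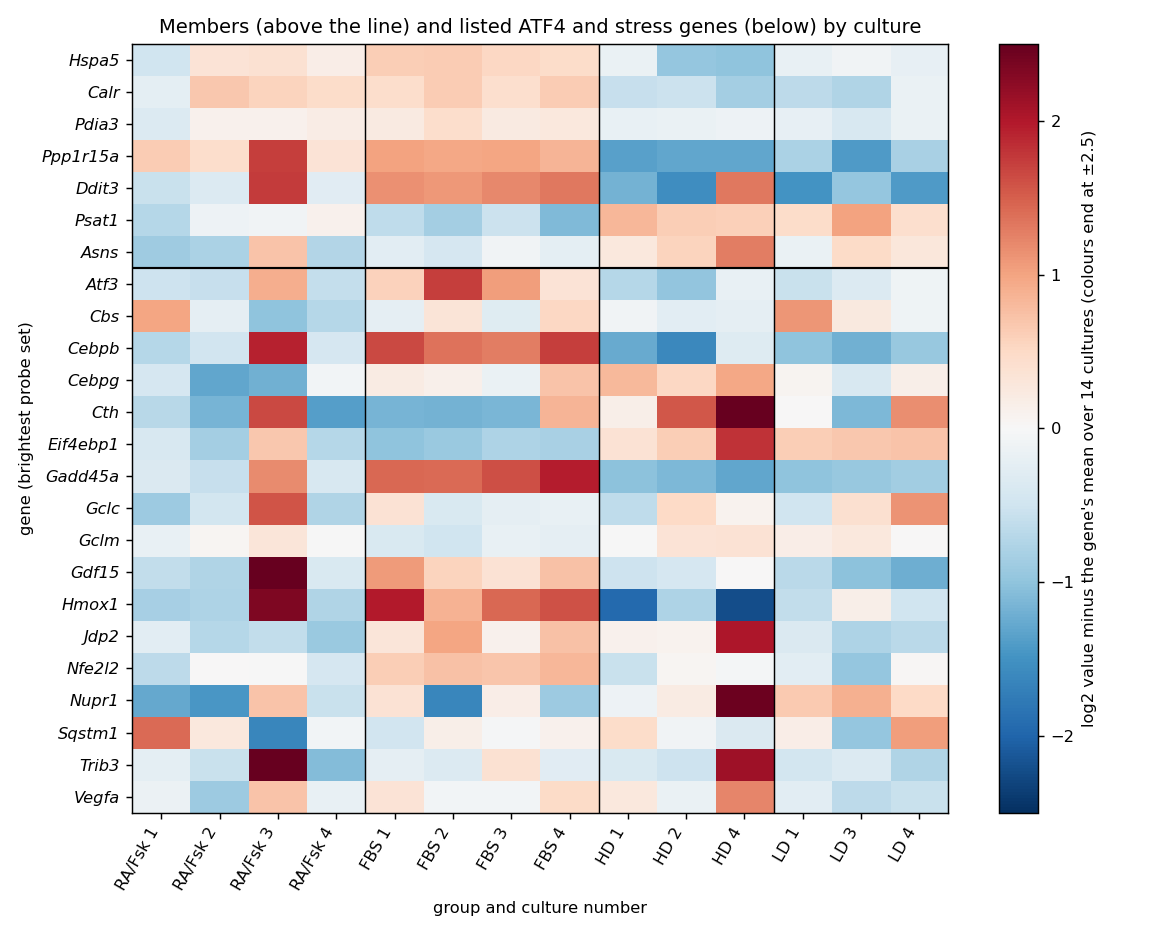
Log2 intensity of each gene's brightest probe set minus its mean over the 14 cultures, for the 7 genes (above the line) and 17 listed Atf4 targets and stress-regulated factors (below it), with red above and blue below the mean. RA/Fsk culture 3 and HD culture 4 are red in Ddit3, Asns and Trib3. The 4 FBS cultures are red in Ppp1r15a, Ddit3, Cebpb, Gadd45a and Hmox1. Hmox1 is also red in RA/Fsk culture 3 and blue in HD culture 4.

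The rest of the pathway was read from lists of 1 brightest probe set per gene. Over all 4736 genes, 13.6% rose and 12.4% fell with FBS over LD, and 5.62% rose and 3.32% fell with RA/Fsk over LD. Of 20 measured ER chaperones and folding enzymes other than those above, 7 rose and 3 fell with FBS, with a median of 0.51 log2 beside -0.07 over all genes. The largest rises were Serpinh1, the collagen chaperone (2.06 ± 0.35 log2, limma, adjusted p = 0.000228), Plod2, a lysyl hydroxylase of collagen (1.38 ± 0.24, adjusted p = 0.000358), and P4ha1, a subunit of collagen prolyl hydroxylase (1.05 ± 0.21, adjusted p = 0.00113). Serpinh1 was dim, at 14.8 to 54.3 in FBS and 3.6 to 5 in LD cultures, so the size of its rise depends on the pseudocount. Fkbp2, a prolyl isomerase of the ER, fell by 1.28 ± 0.12 (adjusted p = 7.19e-07). With RA/Fsk 1 of the 20 rose and 1 fell, with a median of -0.07. Between the treatments 7 of the 20 were lower in RA/Fsk and 3 higher, with a median of -0.40, beside 10.4% and 8.95% of all genes.

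Among 14 measured genes, of 41 listed, for the stress sensors, ER-associated degradation and the translocon, 3 rose and 1 fell with FBS. Ern1, Atf6, Atf6b and Xbp1 had no probe set annotated to them alone. Of the sensors only Eif2ak3, which encodes PERK, was measured. It did not pass, at 44.3 to 45.2 in FBS and 37.5 to 55.4 in LD cultures. The rises were Sec62 (1.04 ± 0.14, limma, adjusted p = 3.75e-05) and Sec61a1 (0.99 ± 0.23, adjusted p = 0.00382), which bring new proteins into the ER, and Tmbim6, a membrane protein that guards against ER stress death (0.86 ± 0.16, adjusted p = 0.000601). Sec62 also rose with RA/Fsk (0.73 ± 0.14, adjusted p = 0.00424), as the single call of that list there. Of 13 measured genes for the eIF2 kinases, eIF2, its exchange factor eIF2B and its phosphatase, 1 rose and 3 fell with FBS. The rise was Eif2ak2, the kinase that answers to double-stranded RNA (0.71 ± 0.25, adjusted p = 0.0474). The falls were the eIF2B genes Eif2b3 (-0.78 ± 0.20, limma, adjusted p = 0.00676) and Eif2b1 (-0.66 ± 0.12, adjusted p = 0.000374), and the phosphatase gene Ppp1cc (-0.51 ± 0.15, adjusted p = 0.0183). With RA/Fsk over LD 1 of the 13 rose and 0 fell. That rise was Eif2b1 (0.55 ± 0.12, limma, adjusted p = 0.00608), which moved the other way with FBS.

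Of 17 measured Atf4 targets and stress-regulated factors, 5 rose and 2 fell with FBS, with a median of 0.40 log2. Cebpb, a C/EBP transcription factor, rose by 2.56 ± 0.48 (limma, adjusted p = 0.000618), Gadd45a, a growth arrest gene, by 2.55 ± 0.31 (adjusted p = 1.05e-05) and Atf3, an ATF-family factor, by 1.25 ± 0.37 (adjusted p = 0.0175). Eif4ebp1, a brake on translation initiation, fell by 1.55 ± 0.33 (adjusted p = 0.00167). None of the 17 passed in limma with RA/Fsk over LD (4 at an unadjusted p under 0.05), and Cebpb there was at 1.13 ± 0.48 (adjusted p = 0.177), with RA/Fsk culture 3 at 438.7 and the other RA/Fsk cultures at 65.5 to 82.1. Between the treatments 6 of the 17 were lower in RA/Fsk and none higher, beside 10.4% and 8.95% of all genes.

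Of 18 measured synthesis and one-carbon enzymes, 5 rose and 7 fell with FBS. Phgdh, the first enzyme of serine synthesis and so of the same pathway as Psat1, fell by 0.99 ± 0.20 log2 (limma, adjusted p = 0.0012). With RA/Fsk, Phgdh was at 0.09 ± 0.20 over LD (adjusted p = 0.864), and it was higher in RA/Fsk than in FBS cultures by 1.08 ± 0.19 (adjusted p = 0.000457). The largest rise with FBS was Ass1, argininosuccinate synthase of arginine synthesis (4.38 ± 0.29, adjusted p = 1.63e-08). Ass1 read 123 to 294 in FBS cultures and 2.6 to 6.05 in LD cultures, where it was near the floor. Glul, glutamine synthetase, rose with FBS (1.76 ± 0.17, adjusted p = 9.3e-07) and with RA/Fsk (1.40 ± 0.17, adjusted p = 5.46e-05), and it also stands in the astrocyte marker list.

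Of 8 measured amino acid transporters, 0 rose and 1 fell with FBS. The fall was Slc7a1, the carrier of arginine and lysine (-0.81 ± 0.15, limma, adjusted p = 0.000721). Of 5 measured aminoacyl-tRNA synthetases, which charge tRNA with amino acids, 0 rose and 3 fell (Vars1, Kars1 and Farsa, by 0.63, 0.62 and 0.56 log2). Neither list had a call with RA/Fsk over LD, where 1 transporter and 2 synthetases were under an unadjusted p of 0.05. None of the 7 lists had a call in HD against LD (1 to 6 genes a list at an unadjusted p under 0.05), beside 0.317% of all genes that rose and 0.148% that fell.

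**Figure D4:**
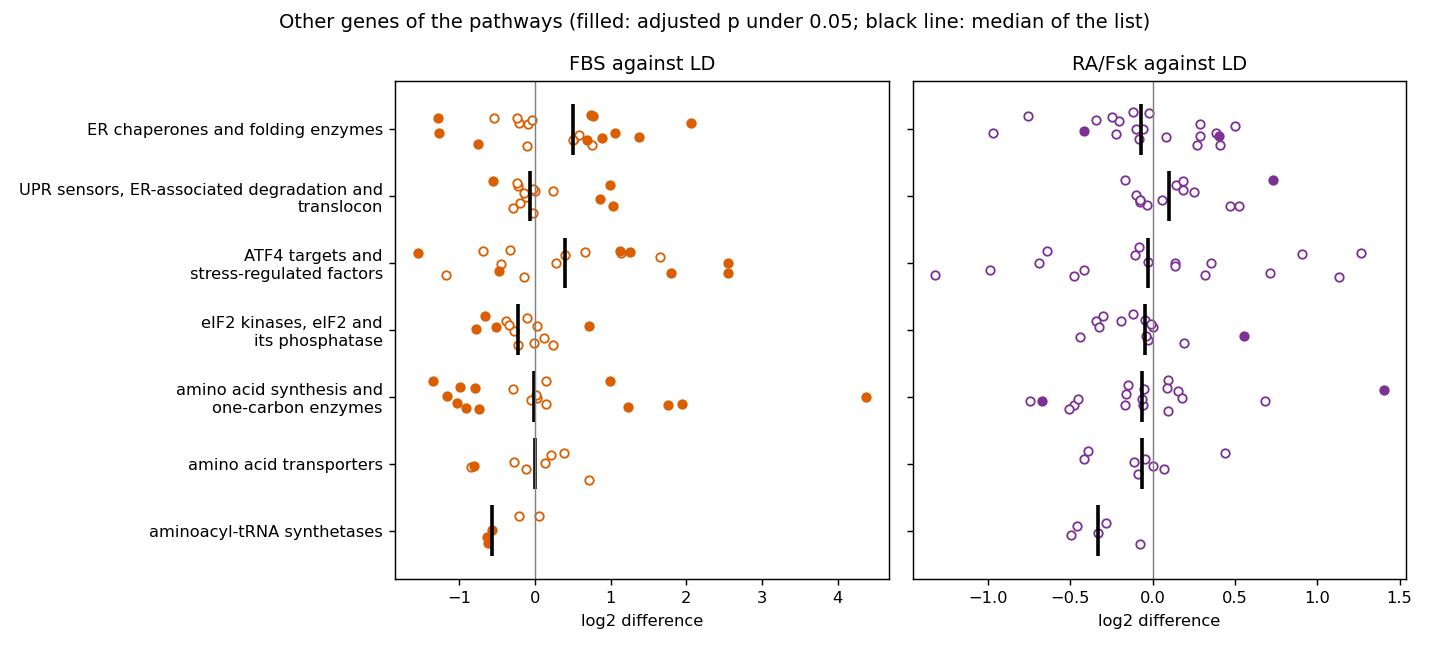
Log2 differences of the measured genes of 7 lists, 1 point per gene, for FBS against LD (left) and RA/Fsk against LD (right, with its own scale); filled points passed at an adjusted p under 0.05 and the black line is the list's median. With FBS the ER chaperone list has its median at 0.51 with 7 filled points to the right, and the synthetase list at -0.56 with 3 filled points to the left.

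Other measures also differed between the groups. The GAPDH 5′ to 3′ ratio, a sign of RNA integrity, was 0.27 log2 higher in FBS than in LD cultures (exact permutation test, two-sided, p = 0.0286, the smallest that 4 against 3 allows). It differed by 0.04 between RA/Fsk and LD, by 0.26 between HD and LD and by 0.007 between FBS and HD. The mean of the array's antisense control probe sets was lower by 0.80 log2 in FBS than in LD cultures and 0.42 higher in RA/Fsk than in FBS cultures (exact permutation test, two-sided, p = 0.0286 for each, the smallest possible). The antisense mean was 0.73 lower in HD than in LD cultures and 0.07 lower in FBS than in HD cultures. With the ratio as a covariate 12 of the 13 FBS calls over LD passed again, and the dimmer Pdia3 probe set did not (0.67, limma, adjusted p = 0.196). The summed intensity of 5 of 6 microglia markers was 290 to 393 in FBS and 213 to 316 in LD cultures, and 1 of the 5, Ctss, rose (1.46 log2, adjusted p = 0.000553). None of 5 fibroblast or meningeal markers passed (1 at an unadjusted p under 0.05), with sums of 167 to 216 in FBS and 158 to 220 in LD cultures. None of 3 endothelial markers passed, at an unadjusted p under 0.05 either. Of 5 progenitor markers 3 fell with FBS. Of 4 oligodendrocyte lineage markers, Pdgfra, the receptor of oligodendrocyte precursors, fell with FBS and read 110 to 144 in FBS and 562 to 999 in LD cultures. Mbp, a myelin protein, rose with FBS (1.46 log2 over LD, adjusted p = 0.0373) and with RA/Fsk (2.45), and Cnp rose with RA/Fsk (0.78). The neurofilament gene Nefm was the 1 of 7 neuron markers that rose with FBS, at 81.1 to 118 in FBS and 7.50 to 25.1 in LD cultures. The part of these measures and of the astrocyte markers in the results was not tested.

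Across the 14 cultures the genes fell into patterns that reflect the group differences above. The correlations are descriptions over cultures that share groups, labels and scaling. Calr had its highest correlation within the set with Ppp1r15a (r = 0.89) and Pdia3 (0.87), and Psat1 ran against Ppp1r15a (-0.86). Asns and Ddit3 correlated at 0.09. Probe sets of 1 gene correlated at 0.98 for the 2 of Ppp1r15a, at 0.85 to 0.92 among the first 3 of Psat1, and at 0.90 for the first 2 of Hspa5. For Pdia3 the value was 0.68, and for the third Hspa5 probe set with the first 0.11.

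Among the 3648 brighter probe sets with 1 symbol, the most similar patterns over the 14 cultures were named for each gene. They were Bicd2, St3gal2 and P4hb for Hspa5 (r = 0.92, 0.89 and 0.88) and Glul, Cpt1a and Rhoc for Calr (0.94, 0.93 and 0.92). For Pdia3 they were a Calr probe set, Sfxn3 and Lamp2 (0.92, 0.91 and 0.91). Ppp1r15a was nearest to Tpst2, Cstb and Lamp1 (0.96, 0.96 and 0.95), and Ddit3 to Rabac1, Gas6 and Cebpb (0.93, 0.92 and 0.91). For Psat1 they were Idi1, Sub1 and Hnrnpa1 (0.96 each), and for Asns they were Tars1, Slc7a5 and Eif4ebp1 (0.89, 0.87 and 0.86).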

How the data were processed

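The deposited table gives a linear intensity per probe set and array, per the file headers. How the authors corrected background and summarised probes is not given in the sources used here. The trimmed means of the arrays (2% off each end) lie at 200.3 to 200.5, with medians of 41 to 57.5. The table holds 6 zeros and 0 negative values, and 59 control probe sets were left out. Symbols come from the platform annotation, where 7006 probe sets carry 1 symbol, 308 several and 1426 none. Of the gene identifiers, 6994 matched RefSeq GRCr8.

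The pseudocount of 4.99, which is 10% of the median of all positive intensities (49.9), was added before log2, and arrays of a culture were averaged. All 14 cultures entered 1 fit in limma 3.58.1 (R 4.3.3; lmFit, eBayes with an intensity trend, 10 residual degrees of freedom) with 6 comparisons, and the fit was tested on simulated data. Precision is limited by the number of cultures, which is 3 or 4 per group.

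The alternatives were pseudocounts of 1 and 50, quantile normalization, median centring, leaving out the dimmer 25% or 50% of probe sets, single arrays, no intensity trend, the GAPDH ratio as a covariate, the number as a block, and leaving out each culture.

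The members and lists were chosen with earlier results of these data known. Every probe set of the members is named. List genes named with values are among up to 4 rises and 4 falls per list that passed without overlap. Trib3, Cebpb under RA/Fsk, Hmox1 by culture and Phgdh under RA/Fsk against LD were picked with their values in view. The nearest patterns are the 3 highest Pearson correlations among brighter probe sets.

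Deviations from group means were correlated between cultures that share a number. All 3 RA/Fsk and LD pairs were over 0.1 (r = 0.11 to 0.33), so these were taken as paired by the data, not by the labels. No other pair of groups met this. As an alternative, the number was nevertheless fitted as a block over all 14 cultures.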

Additional observations from a re-analysis of the deposited data

Results flagged for a closer look

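Of 32 sets of 4 cultures checked (16 probe sets in the RA/Fsk and FBS groups), 5 had a culture whose gap to the nearest of the others exceeded Dixon's 95% critical share of the group's range for 4 samples. Chance alone marks about 1 in 20. In RA/Fsk culture 3, Asns was high (gap 0.909 of the range, 390.3 against 125.5 to 139.4 in the other cultures), as were Ddit3 (0.881, 1066 against 212.2 to 257.5) and the dimmer Ppp1r15a probe set (0.879, 291.4 against 82.0 to 95.9). In RA/Fsk culture 1 the second Calr probe set was low (0.833, 379.0 against 663.1 to 741.6). In FBS culture 2 the dimmer Pdia3 probe set was high (0.870, 90.3 against 69.4 to 71.8).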

How the results depend on the processing

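Over 26 alternatives, each member difference was counted once for every alternative in which it was fitted. Of these counts, 2315 stayed on their side of the threshold, 136 lost the call, 21 gained one and 0 reversed a call. Among the 2315, differences that did not pass could change sign, as Ddit3 did for HD against LD. Calls that passed under every alternative were 9 of 13 for FBS against LD, 3 of 7 for RA/Fsk against LD, 0 of 2 for RA/Fsk against FBS, 9 of 14 for FBS against HD and 6 of 10 for RA/Fsk against HD. The 2 calls for RA/Fsk against FBS became 1 with a pseudocount of 50 or with array 3r alone for FBS culture 3, 0 with median centring or without the intensity trend, and 1, a fall of Ddit3, with the GAPDH covariate. The 10 calls for RA/Fsk against HD became 6 with median centring, which moved the median of all probe sets by -0.09 log2 in that comparison, by -0.19 for FBS against HD, and by 0.10 for both RA/Fsk against FBS and HD against LD. The cause was not tested. Leaving out 1 culture at a time gave 10 to 14 calls for FBS against LD, 3 to 8 for RA/Fsk against LD (3 without LD culture 3), 0 to 2 for RA/Fsk against FBS (0 without FBS culture 4 or RA/Fsk culture 4, and 1 without HD culture 1 or 2, LD culture 4, FBS culture 1, 2 or 3, or RA/Fsk culture 2), 10 to 14 for FBS against HD, 6 to 10 for RA/Fsk against HD (6 without HD culture 4 or RA/Fsk culture 2) and 0 for HD against LD. These counts can hide a change of genes. Without RA/Fsk culture 3 the 2 calls for RA/Fsk against FBS were falls of Ppp1r15a and Ddit3, and both Psat1 calls were lost. Over all probe sets, the 75 calls for HD against LD ranged over 48 to 465. With 1 culture left out they ranged over 23 to 110 (23 without HD culture 4, 33 without LD culture 3). The 889 for RA/Fsk against HD became 559 without HD culture 4. With the replicate number as a block, the calls were 0 for HD against LD, 13 for FBS against LD, 7 for RA/Fsk against LD, 3 for RA/Fsk against FBS, 13 for FBS against HD and 10 for RA/Fsk against HD. Same-numbered cultures of other groups correlated at -0.09 to 0.14. Probe sets near 0 have no usable fold change.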
